A study of Homo sapiens with 3 samples.

Results

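Classic estrogen target genes of breast cancer cells were examined in CAMA1 cells that had been kept without estradiol. The genes were PGR, TFF1, TFF3, GREB1, PDZK1, MYB, STC2, IL17RB, CXCL12 and SUSD3. They were taken by symbol from a table of 26485 entries, and all 10 were found. CAMA1 is a widely used human line of breast cancer cells, labelled as ER+ (carrying the estrogen receptor) and FGFR1-amplified. Dishes of these cells, at fewer than 10 passages, were held for 48 h in medium lacking estradiol, and poly-A RNA was sequenced in 3 libraries numbered as replicates. There was 1 group, labelled as control, so the response of these genes to estradiol or to any other agent was not measured.

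Estradiol binds the estrogen receptor, a nuclear receptor coded by ESR1. The bound receptor attaches as a dimer to DNA at estrogen response elements and at sites held by other factors, and recruits coactivators to its target genes. The genes described here are used as readouts of that receptor in breast tumours. They code for proteins of different kinds, among them a nuclear receptor, a receptor cofactor, a transcription factor, secreted peptides, a chemokine, membrane proteins and a scaffold protein.

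The libraries held 26473939, 26592335 and 30745412 counts in replicates 1, 2 and 3. Levels are given as TPM, each library's counts divided by the deposited gene length and scaled to a fixed sum. All 8 luminal epithelial markers were above 10 TPM, and EPCAM, an epithelial surface protein gene, stood at 397 ± 10.6 TPM (SD, n = 3). All 4 basal, all 3 endothelial and all 5 immune markers were below 10 TPM. Of 10 fibroblast markers 8 were below 10 TPM, while COL3A1 (163 TPM) and COL1A1 (10.5 TPM) were above. Replicate 3 stood apart from the others by the median difference between libraries. Over 12850 detected protein-coding genes the median absolute difference in log2(TPM + 1) was 0.127 between replicates 1 and 3 and 0.109 between replicates 2 and 3, against 0.0686 between replicates 1 and 2. The largest differences of single genes involved replicate 1, at 4.49 from replicate 2 and 4.51 from replicate 3, against 2.27 between replicates 2 and 3. Calls of variation between libraries are also given with replicate 3 left out.

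RNA of all 10 genes was detected without estradiol, at moderate levels with a wide range. Each gene had at least 10 counts in every library, as did 67.2% of 19131 protein-coding entries. Of the 10 genes, 8 had a mean of at least 10 TPM, as did 47.6% of protein-coding entries. Their median was 18.9 TPM, against 7.91 TPM over all protein-coding entries and 25.7 TPM over detected ones. ESR1 itself had 29.4, 30.7 and 30.2 TPM in replicates 1 to 3, a narrow spread. In bulk RNA of this kind, fewer cells that express a gene and less RNA per cell cannot be told apart.

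**Figure D1:**
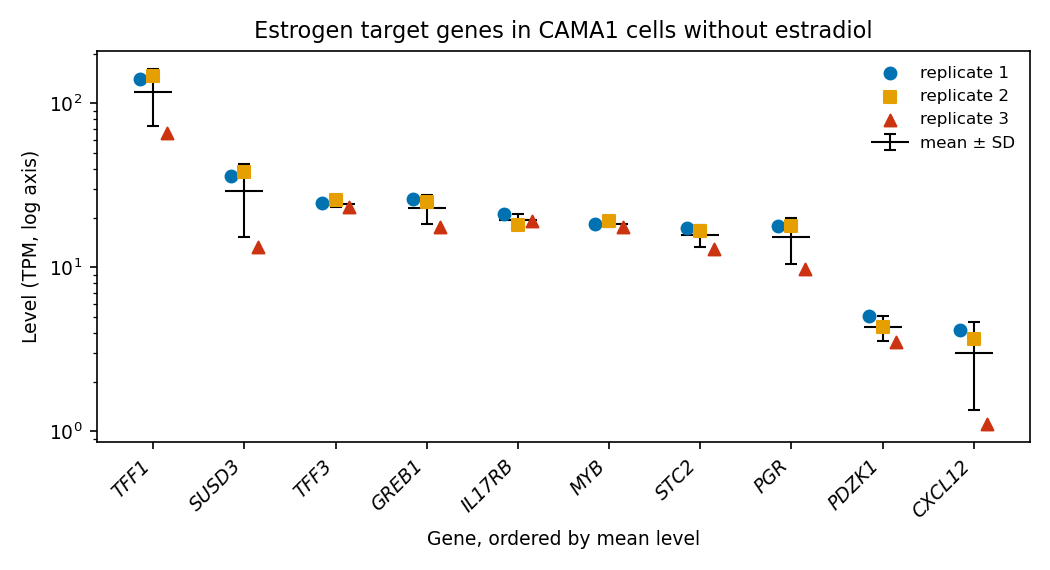
Level of each estrogen target gene in TPM (log axis) in the 3 libraries, with the mean and SD, ordered by mean. TFF1 stands highest with 66.1 to 148 TPM and CXCL12 lowest with 1.11 to 4.18 TPM. The replicate 3 point is the lowest for 9 of the 10 genes, by the widest ratios for TFF1, SUSD3, PGR and CXCL12.

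Per length, TFF1 was far above the rest, and most of the other levels could not be separated from their neighbours. The order by mean level was TFF1, SUSD3, TFF3, GREB1, IL17RB, MYB, STC2, PGR, PDZK1 and CXCL12. The ranges over libraries of neighbours in that order lay apart in 3 of 9 pairs, TFF1 over SUSD3, MYB over STC2 and PGR over PDZK1. The gap of MYB over STC2 was small (17.6 against 17.4 TPM at the nearest) and turned round with GENCODE v29 exon lengths, which gave MYB 16.8 TPM and STC2 18.7 TPM. On CPM, without division by length, GREB1, PGR, STC2 and MYB stood above TFF1. The log2 ratio within libraries was 2.08 ± 0.21 for TFF1 over SUSD3 and 1.78 ± 0.29 for PGR over PDZK1 (SD, n = 3). By an exact permutation test that flips signs, two-sided, the p of each was 0.25, the smallest that 3 libraries can give, so none of the 9 pairs could pass 0.05. PDZK1 was above CXCL12 in 3 of 3 libraries, but their ranges overlapped. Without replicate 3 the ranges lay apart in 7 of 9 pairs of neighbours.

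Among the regulators of transcription, PGR codes for the progesterone receptor, a nuclear receptor and the target most often measured in tumours beside the estrogen receptor. PGR (chromosome 11, 101029624 to 101129813 on hg38, minus strand) had 17.98, 17.9 and 9.77 TPM in replicates 1, 2 and 3, on 2322, 2328 and 1496 counts. Replicates 1 and 2 were nearly equal and replicate 3 was low. An entry on the opposite strand, LOC101054525, overlaps PGR and had 4, 5 and 6 counts. ESR1 exceeded PGR 1.63-fold, 1.72-fold and 3.09-fold on the TPM scale in replicates 1 to 3.

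GREB1 codes for a cofactor that binds the estrogen receptor in breast cancer cells. GREB1 (chromosome 2, 11534116 to 11642786, plus strand) had 26.1, 25.2 and 17.6 TPM. Its replicate 3 value was again the lowest, with a smaller gap than for PGR. Its deposited counts were not whole in any library, and no other entry overlapped its exons. MYB, which codes for a transcription factor of progenitor cells and a proto-oncogene product, had 18.3, 19.0 and 17.6 TPM (chromosome 6, 135181315 to 135219173, plus strand). The 3 libraries were close together for MYB, and replicate 3 did not stand apart.

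TFF1 and TFF3 code for trefoil peptides, small secreted proteins that protect mucous surfaces, and lie 46685 bases apart on chromosome 21. TFF1 (42362282 to 42366535, minus strand) had 140, 148 and 66.1 TPM in replicates 1 to 3, on 682, 725 and 382 counts. TFF3 (42311667 to 42315596, minus strand) had 24.5, 25.7 and 23.3 TPM, on 256, 270 and 288 counts. TFF1 was low in replicate 3, whereas the 3 values of TFF3 lay close together. TFF1 exceeded TFF3 5.71-fold, 5.75-fold and 2.84-fold in TPM. TFF2, the family member between them, had 1, 2 and 4 counts.

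CXCL12, the chemokine ligand of CXCR4 and ACKR3, was the lowest of the 10 genes, with the widest ratio between libraries. CXCL12 (chromosome 10, 44370153 to 44385097, minus strand) had 4.18, 3.67 and 1.11 TPM, on 219, 194 and 69 counts. The exact 95% Poisson interval of the level in replicate 3 reached from 0.864 to 1.41 TPM, which lay below that of replicate 2 at 3.18 to 4.23 TPM and covers counting error only. Fibroblasts are a main source of CXCL12 in tissue. Of 10 fibroblast markers 3 were detected, COL1A1, COL3A1 and VIM. COL1A2, DCN, LUM, PDGFRA and THY1 had 0 counts in all libraries, which does not exclude a low level. The summed level of the 10 markers was 185, 196 and 151 TPM, mostly from the collagen gene COL3A1, and its part in the CXCL12 values was not tested. STC2, which codes for the secreted glycoprotein stanniocalcin-2, had 17.4, 16.7 and 13.0 TPM (chromosome 5, 173314723 to 173329503, minus strand). Replicate 3 was the lowest here too, by a small margin.

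Among the membrane and scaffold genes, SUSD3 codes for a sushi-domain protein of the cell surface. SUSD3 (chromosome 9, 93058688 to 93085136, plus strand) had 35.9, 38.3 and 13.3 TPM, on 471, 507 and 207 counts. In replicates 1 and 2 it ranked second of the 10 genes and in replicate 3 it ranked 6. IL17RB, which codes for a subunit of the receptor of interleukins 17B and 25, had 21.1, 18.02 and 19.1 TPM (chromosome 3, 53846550 to 53865800, plus strand). Its lowest value was in replicate 2. PDZK1, a scaffold protein gene of the NHERF family that links membrane transporters, had 5.05, 4.36 and 3.52 TPM on 115, 100 and 95 counts (chromosome 1, 145670853 to 145707400, minus strand). Its pseudogene PDZK1P1 had 69, 48 and 55.5 counts, so the division of reads between these near copies is uncertain.

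The spread between libraries differed widely among the 10 genes. Counts were scaled as CPM, which here are counts scaled to a fixed library total with TMM factors and not divided by length, and each gene was tested against the trended negative binomial dispersion of genes of its abundance. By this edgeR test 4 of the 10 genes varied between libraries at an adjusted p under 0.05, against 1.31% of 14453 genes tested. They were SUSD3 (adjusted p = 5.91e-07), PGR (1.16e-05), CXCL12 (1.7e-05) and TFF1 (2.62e-05). All 4 were lowest in replicate 3, as were 102 of all 190 genes called (0.706% of tested genes). Because the genes were chosen with results of these libraries known, the counts are a description of the genes and not a test of the group.

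**Figure D2:**
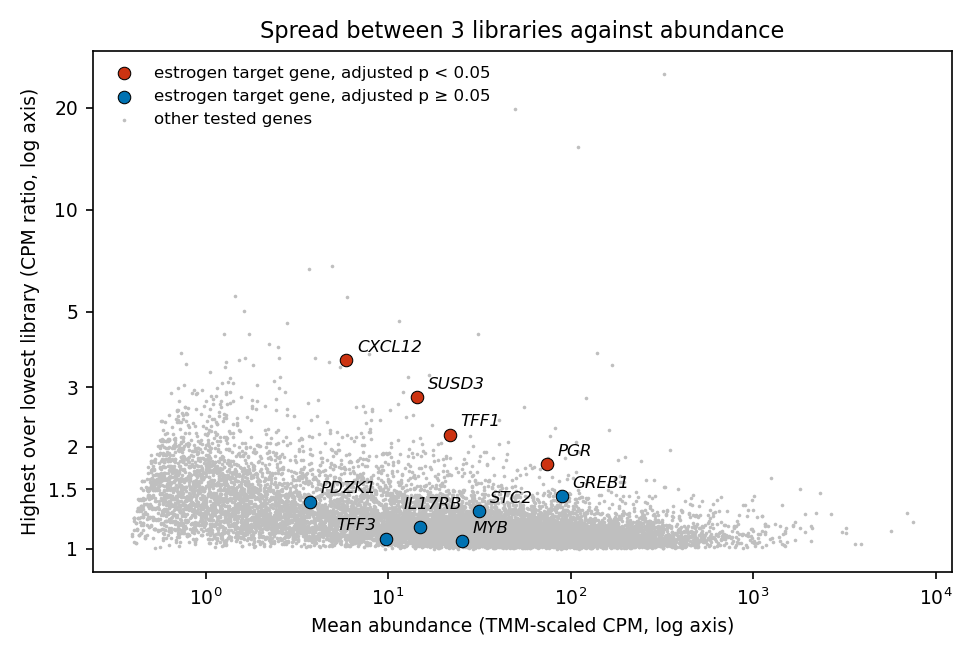
Ratio of the highest to the lowest library in CPM against mean CPM (both log axes) for every tested gene, with the 10 estrogen target genes marked by whether they varied beyond the trended dispersion. CXCL12, SUSD3, TFF1 and PGR lie at ratios of 3.61, 2.80, 2.17 and 1.78, and the other 6 genes between 1.05 and 1.43.

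SUSD3 had 17.6, 19.1 and 6.81 CPM in replicates 1 to 3, a ratio of highest to lowest of 2.80, where genes within 1.5-fold of its mean CPM had a median ratio of 1.16. CXCL12 had 8.19, 7.30 and 2.27 CPM, a ratio of 3.61 against a median of 1.23. TFF1 had 25.5, 27.3 and 12.6 CPM, a ratio of 2.17 against 1.13. PGR had 86.9, 87.6 and 49.2 CPM, a ratio of 1.78 against 1.10. For each of these genes replicates 1 and 2 lay close together and replicate 3 lay well below both.

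GREB1 varied less. It had 100.03, 97.8 and 70.03 CPM, and its spread did not pass (edgeR adjusted p = 0.0760), but it passed with scaling by library totals alone (0.0425). STC2, PDZK1, TFF3, IL17RB and MYB had an adjusted p of 0.99999 each in the same edgeR test. MYB and TFF3 had coefficients of variation of 2.94% and 3.81% in CPM, below the 6.93% that was the median of tested genes. Against counting error alone, edgeR's Poisson test called 6 of the 10 genes and 41.6% of all tested genes. GREB1 (adjusted p = 3.35e-40) and STC2 (4.1e-07) joined the 4 genes there. All 6 were lowest in replicate 3, as were 2700 of all 6017 genes with the Poisson call (18.7% of tested genes).

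**Figure D3:**
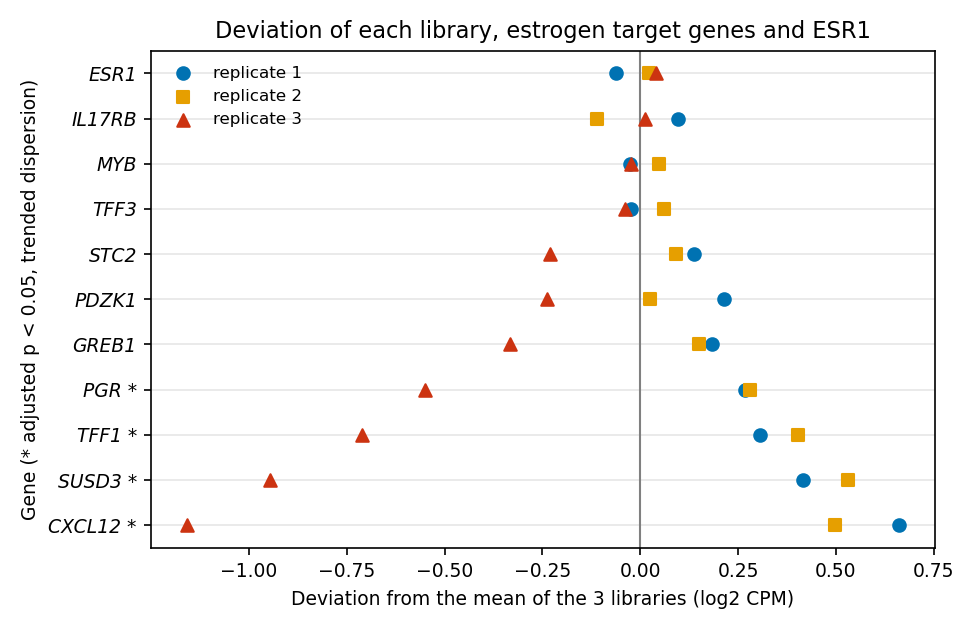
Deviation of each library from the mean of the 3 libraries in log2 CPM for the 10 estrogen target genes and ESR1, sorted by the replicate 3 value; a star marks an adjusted p under 0.05 against the trended dispersion. Replicate 3 reaches −1.16 for CXCL12 and −0.95 for SUSD3 and lies at 0.04 for ESR1.

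The low values lay in replicate 3. On the CPM scale 8 of the 10 genes were lowest in replicate 3, as were 39.8% of tested genes. On the TPM scale 9 of the 10 were, MYB included, but the share of all genes was not counted on that scale. The median TPM of protein-coding entries was itself lowest in replicate 3, at 8.13, 8.01 and 7.51 in replicates 1 to 3. In 4 of the 10 replicate 3 lay below both others by 1.5-fold or more in CPM, as in 2.66% of tested genes. Deviations of replicate 3 from the mean of the libraries in log2 CPM were −1.16 for CXCL12, −0.95 for SUSD3, −0.71 for TFF1, −0.55 for PGR, −0.33 for GREB1, −0.24 for PDZK1 and −0.23 for STC2. They were −0.04 for TFF3, −0.02 for MYB and 0.01 for IL17RB. The 10 genes together took 0.0331% and 0.0326% of all counts in replicates 1 and 2 and 0.0218% in replicate 3. Without replicate 3 none of the 10 genes varied beyond the trended dispersion or beyond Poisson sampling by the edgeR tests. Over all tested genes the shares called were then only 0.171% and 8.08%. Of the 10 genes, 0 and 1 had an unadjusted p under 0.05 in these fits, as had 392 and 2889 of all 14607 tested genes. With replicate 1 or replicate 2 left out, 4 of the 10 were called against the trended dispersion, as were 0.644% and 0.458% of tested genes. Without replicate 3 the mean levels were 144 TPM for TFF1, 37.1 TPM for SUSD3, 17.9 TPM for PGR and 3.93 TPM for CXCL12.

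Across the 10 genes, Pearson's r of log2(TPM + 1) was 0.998 between replicates 1 and 2, 0.932 between replicates 1 and 3 and 0.927 between replicates 2 and 3. Over the 12850 detected protein-coding genes the same values were 0.998, 0.994 and 0.995. These correlations are across genes, which are not independent replicates and share their libraries. The mean levels of the 10 genes ran from 2.99 to 118 TPM, while those of protein-coding entries reached 8580 TPM. Because r depends on the range of levels, its values are not directly comparable between the 10 genes and all detected genes.

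ESR1 did not vary between libraries by the same edgeR test, with 75.9, 80.4 and 81.4 CPM (adjusted p = 0.99999). The luminal marker list had a median deviation of 0.08 log2 CPM in replicate 3, and 0 of its 8 genes varied beyond the trended dispersion. All 14 genes of a proliferation list were lowest in replicate 3, as were 39.8% of tested genes, with a median deviation of −0.32. Of these 14 genes 4 passed the edgeR test, MKI67, MCM2, MCM3 and MCM5, against 1.31% of tested genes. The list was chosen after values were seen, so its counts describe these genes only. MCM2, which codes for a subunit of the replicative helicase, had 36.5, 38.9 and 20.7 CPM (adjusted p = 0.000238). Without replicate 3 none of the 4 passed the edgeR test (adjusted p = 0.999 each, unadjusted p from 0.227 to 0.895), and of the 4 only MCM2 passed without replicate 1 (adjusted p = 0.00260) and none without replicate 2. Replicate 3 also held the most counts. The part of proliferation in the values of the estrogen target genes was not tested.

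**Figure D4:**
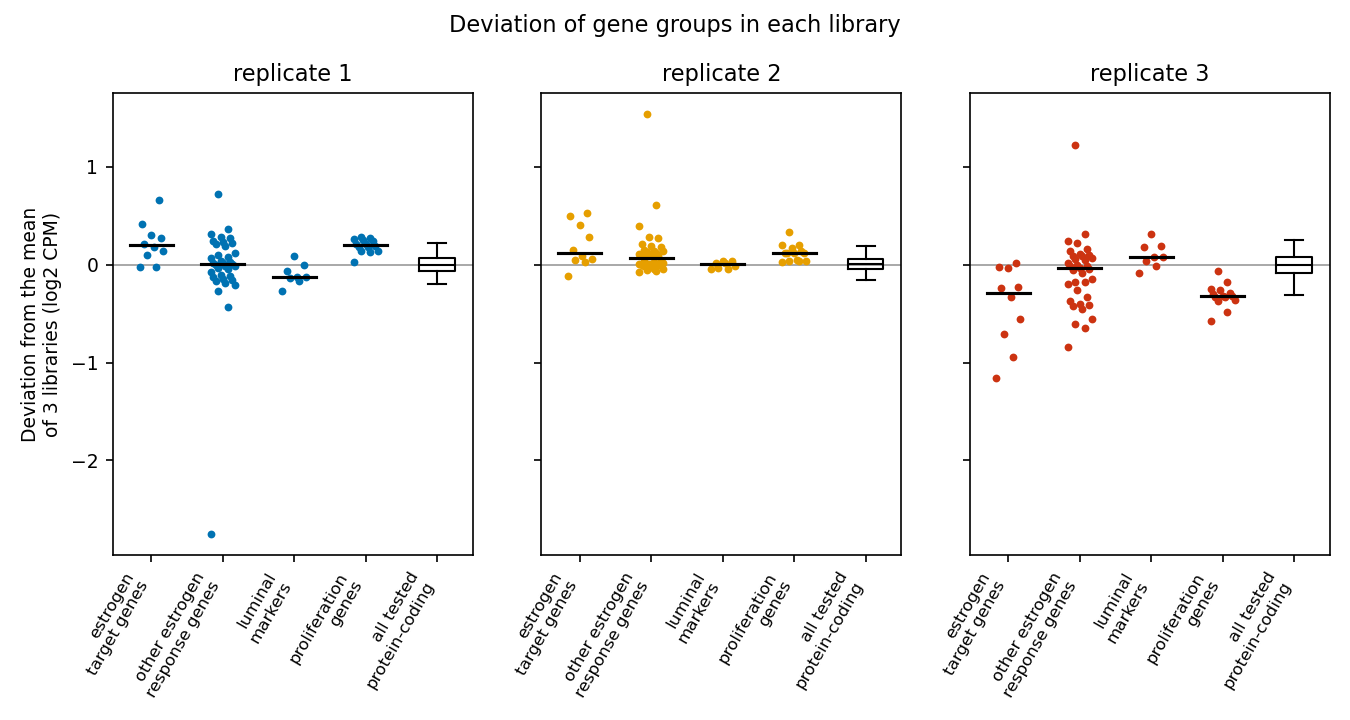
Deviation of each library from the mean of the 3 libraries in log2 CPM, one point per tested gene of each list with the median as a bar, and for all tested protein-coding genes a box of quartiles with whiskers at the 5th and 95th percentiles. In replicate 3 the medians are −0.29 for the estrogen target genes, −0.04 for the other estrogen response genes, 0.08 for luminal markers and −0.32 for proliferation genes.

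Other genes known to be induced by estrogen in breast cancer cells were measured in the same way. Of a list of 42, none of them among the 10, 36 were detected and 30 reached 10 TPM, with a median of 29.9 TPM. The highest were the keratin gene KRT19 (3256 ± 605 TPM), XBP1, a transcription factor gene of the unfolded protein response (1524 ± 135 TPM), SLC9A3R1 (607 ± 82.4 TPM), the carbonic anhydrase gene CA12 (407 ± 48.0 TPM), the cyclin gene CCND1 (263 ± 5.83 TPM) and the protease gene CTSD (254 ± 21.9 TPM), each with SD over 3 libraries. Of the 36 genes tested, 20 were lowest in replicate 3 and 12 were highest there. Of all 14453 tested genes, 5758 were lowest and 5746 highest in replicate 3. By the edgeR test against the trended dispersion 5 of the 36 varied between libraries, against 1.31% of all tested genes. These were the fatty acid elongase gene ELOVL2 (119.7, 117 and 74.1 CPM, adjusted p = 0.000856), the small heat shock protein gene HSPB8 (92.9, 91.9 and 52.1 CPM, 9.14e-06) and MYBL1, with FOS and MYC. ELOVL2, HSPB8 and MYBL1 were lowest in replicate 3, as the 4 genes above were. FOS (4.04, 80.4 and 64.5 CPM) and MYC (32.02, 66.2 and 38.4 CPM), which also respond early to growth factors, were lowest in replicate 1. Without replicate 3 the edgeR adjusted p was 0.999 for ELOVL2, HSPB8 and MYBL1, while FOS (1.94e-162) and MYC (1.6e-15) still passed. FOS did not pass without replicate 1 (0.901), nor MYC without replicate 2 (0.999784). Without replicate 2, ELOVL2 had an adjusted p of 0.0700, and MYBL1 had 0.0868 without replicate 1 and 0.0935 without replicate 2. XBP1, SLC9A3R1, CA12 and KRT19 were each highest in replicate 3, and none of them passed.

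Relatives and partners of the 10 genes were measured in the same libraries. The CXCL12 receptor gene CXCR4 had 6.29, 7.10 and 7.94 TPM and ACKR3, which codes for the other receptor, 1.35, 1.53 and 1.70 TPM. Neither varied beyond the trended dispersion (edgeR adjusted p = 0.99999 each), and replicate 3, lowest for the ligand, had the highest value of both. IL17RA, which codes for the partner subunit of IL17RB, stood at 16.1 ± 0.912 TPM (SD, n = 3), while the ligand genes IL17B and IL25 had 4, 2 and 3 counts and 0 counts. Of 4 chaperone genes of the progesterone receptor 0 varied beyond the trended dispersion, and FKBP5 had 71.1, 71.1 and 69.3 TPM.

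Among family members, MYBL1 and MYBL2 stood above MYB in TPM. Both varied between libraries by the main edgeR test, with their lowest value in replicate 3. MYBL2, a cell cycle transcription factor gene, had 38.0, 41.5 and 26.2 CPM (edgeR adjusted p = 0.0491) and MYBL1 101.9, 92.5 and 64.2 CPM (0.00579). GREB1L had 13.8, 14.5 and 9.51 TPM, so that GREB1 exceeded it 1.89-fold, 1.74-fold and 1.85-fold, and it did not pass (0.244). STC1 had 9.95, 9.48 and 8.57 TPM. SUSD2 had 34.8, 37.8 and 57.1 CPM, with its highest value in replicate 3 (0.00479), where SUSD3 had its lowest. None of MYBL1, MYBL2 and SUSD2 passed with any 1 library left out, with edgeR adjusted p from 0.0669 to 0.999. The call of MYBL2 held with library totals alone (0.0359) but not with DESeq2 size factors (0.0505) or other filters (0.0514 and 0.0783). It was also lost with the common dispersion (0.0722) and the dispersion fitted by DESeq2 (0.152). The NHERF genes SLC9A3R1 (607 ± 82.4 TPM) and SLC9A3R2 (95.1 ± 8.43 TPM) stood far above PDZK1, and PDZD3 had 0, 0 and 1 counts.

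The sequences before the transcription start are shown for SUSD3, CXCL12 and PGR, which varied between libraries, and for PDZK1, the other gene whose window held the core GGTCA of the estrogen response element. RefSeq windows on GRCh38.p14 were used for 7 of the 10 genes, TFF1, TFF3 and GREB1 not being among them. The 250 bases before the start were searched on both strands. PGR had 3 windows and PDZK1 had 2, and only the window nearest the start of the deposited gene model was searched. Capitals mark GGTCA or its reverse TGACC, and the GC box GGGCGG or its reverse CCGCCC, which binds Sp1 family factors.
SUSD3, chr9:93058451-93058700, plus strand: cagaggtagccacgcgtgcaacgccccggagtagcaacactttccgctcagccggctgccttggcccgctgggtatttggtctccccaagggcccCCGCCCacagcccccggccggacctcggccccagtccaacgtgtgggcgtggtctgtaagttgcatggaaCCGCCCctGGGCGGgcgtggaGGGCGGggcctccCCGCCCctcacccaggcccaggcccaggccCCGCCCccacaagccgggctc
CXCL12, chr10:44385098-44385347, minus strand: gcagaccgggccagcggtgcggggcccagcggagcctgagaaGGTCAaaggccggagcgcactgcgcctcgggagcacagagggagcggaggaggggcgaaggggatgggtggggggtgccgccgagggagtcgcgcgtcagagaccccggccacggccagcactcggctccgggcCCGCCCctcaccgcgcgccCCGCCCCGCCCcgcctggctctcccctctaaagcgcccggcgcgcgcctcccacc
PGR, chr11:101129814-101130063, minus strand: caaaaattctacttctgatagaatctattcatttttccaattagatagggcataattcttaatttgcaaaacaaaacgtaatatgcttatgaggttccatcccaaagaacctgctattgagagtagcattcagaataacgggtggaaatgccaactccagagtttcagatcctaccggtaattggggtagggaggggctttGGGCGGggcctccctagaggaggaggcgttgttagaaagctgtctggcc
PDZK1, chr1:145707401-145707650, minus strand: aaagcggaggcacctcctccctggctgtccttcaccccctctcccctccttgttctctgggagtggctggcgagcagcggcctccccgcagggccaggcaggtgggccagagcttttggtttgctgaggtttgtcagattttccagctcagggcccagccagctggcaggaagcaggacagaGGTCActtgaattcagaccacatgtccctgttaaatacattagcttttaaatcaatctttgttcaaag

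The palindrome GGTCANNNTGACC was in none of the 7 windows, and in 0.0399% of 35116 windows of the same length. The core GGTCA was in 2 of the 7, CXCL12 and PDZK1, and in 32.6% of all windows. The GC box was in 5 of the 7, with 6 copies before SUSD3, 3 before CXCL12 (a pair of them overlapping by 1 base), 2 before IL17RB and 1 each before PGR and MYB, and in 42.6% of all windows. A GC box stood before genes that varied between libraries (SUSD3, CXCL12, PGR) and before others (IL17RB, MYB). The annotated start used for STC2 lies 1089 bases inside the deposited gene model, so the STC2 window is not sequence before that model. The starts used for the other genes lie within 18 bases of the start of their models. A match of letters is not a binding site, and receptor binding was not analysed here.

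**Figure D5:**
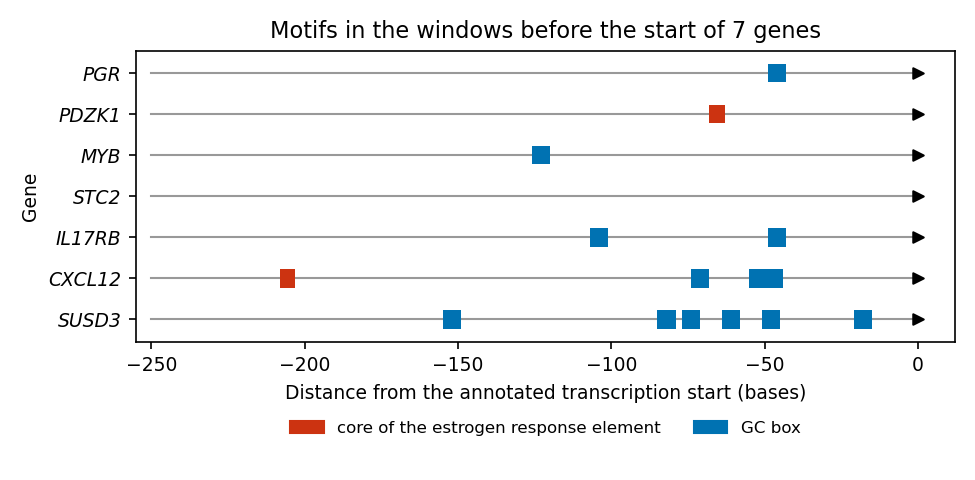
Position of the core of the estrogen response element and of GC boxes in the 250 bases before the annotated start of 7 genes, in bases from the start, with an arrowhead at the start. SUSD3 has 6 GC boxes, CXCL12 has 3 and 1 core, and the STC2 window has neither.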

How the data were processed

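The expected counts per gene were made and deposited by the authors, without scaling. TopHat, Subread and featureCounts with hg38 are named in the submitters' processing notes. Versions, the strand setting and how multi-mapped reads were handled: not given in the sources used here. Of non-zero values 82.9% to 83.3% per library were whole within 1e-08. The deposited length per gene, which the authors gave in bases, was used for TPM. No value column was left unused.

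Gene types came from GENCODE v29 and RefSeq symbols, and 1109 entries matched none. Counts were rounded to whole numbers and fitted in edgeR 4.0.16 (R 4.3.3) with TMM factors of 1.01, 1.00 and 0.990, its filter on low counts and an intercept only. The deviance was set against chi-square with 2 degrees of freedom, for dispersion 0 (Poisson) and for the trended dispersion, with Benjamini-Hochberg adjustment over 14453 genes. On simulated data with 100 genes lowered 2-fold in 1 library, the trended test called 77% of them. The simulated dispersion was the same for every gene and below the common dispersion of the real libraries (0.00775). The share that would be called in the real libraries was therefore not measured. Log2 CPM used a prior count of 2. Alternatives used DESeq2 1.42.0 among others. Replicates were not stated to be separate cultures, so p-values measure the spread of these libraries, which may be technical.

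The members and lists were chosen with earlier results of these data known. The text names all 10 genes, ESR1, some of the 6 highest members at 10 TPM or above of each other list, and further genes chosen after their values were seen.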

Additional observations from a re-analysis of the deposited data

How the results depend on the processing

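Between 1 and 20 counts as the minimum, or at 1 TPM, all 10 genes remained detected. The number of members varying beyond the trended dispersion was 4 with DESeq2 size factors, other filters, the common dispersion or the dispersion fitted by DESeq2, and 5 with library totals alone, where GREB1 passed. Leaving out 1 replicate gave 0 to 4 members, and 0 to 6 beyond Poisson sampling, the 0 each time without replicate 3. Over all genes leaving out 1 replicate gave 25 to 94 calls against 190 for the trended dispersion and 1180 to 5453 against 6017 for Poisson sampling. Fewer libraries leave 1 degree of freedom. The dispersion fitted by DESeq2 gave 138 calls and the common dispersion 283. Pairs of neighbours lying apart in level numbered 3 to 7 with 1 replicate left out, against 3 of 9. The median of the other estrogen response genes was 40.7 as CPM, without division by length, against 29.9 TPM. On that CPM scale GREB1 (89.3) and PGR (74.6) stood above TFF1 (21.8), as did STC2 (31.6) and MYB (25.4). With GENCODE v29 exon lengths, an alternative for the order chosen after seeing the data, 2 of 9 pairs lay apart, and STC2 (18.7 TPM), IL17RB (17.8 TPM) and PGR (17.6 TPM) stood above MYB (16.8 TPM). The order of levels thus depends on the length used. Of 11 other list genes called, a set of fits also chosen after seeing the data kept 8 to 11 under other scalings, filters and dispersions and 2 to 4 with 1 replicate left out. No paired analysis was possible because there was 1 group. No sample was tested as an outlier, since the group had 3 libraries.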
